A study of Homo sapiens with 6 samples.

Results

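The genes described here encode the enzymes that make, recycle, interconvert and break down purine, pyrimidine and deoxyribonucleotides. A list of 58 such genes was set against the platform symbols of an Illumina bead array, and a probe was kept where its detection p-value was under 0.05 on at least 3 of the 6 arrays. This gave 80 of 20348 kept probes, which represent 52 of the 58 genes and 52 of the 11646 genes measured in all. ADSS1, ADSS2, DTYMK, SAMHD1, AMPD2 and AMPD3 had no kept probe under their symbol and are not analysed here. Of all kept probes 4855 carried no single symbol in the platform annotation. A gene reported here or below as having no kept probe was therefore not shown to lack signal. Of the 52 genes, 50 were detected on all 6 arrays.

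RNA came from SN12C, a human renal carcinoma cell line, and the title of the series places the work in tumor cells deficient in NF2, a gene upstream of the Hippo kinases that restrain the transcriptional co-activators YAP and TAZ. Knockdown cells carried pTripz YAPsh, pTripz TAZsh and GFP-luc, and control cells carried pTripz and GFP-luc, with 3 arrays per arm. pTripz is a lentiviral vector from which an shRNA is induced by doxycycline. Cells of both arms received doxycycline for 3 days or longer and spent the 24 hours before harvest in medium without serum. The control arm thus shares the type of vector, drug and serum withdrawal with the knockdown arm. Its label names pTripz once and no shRNA, so by the labels the number of vectors and the presence of an shRNA differed. The 3 arrays of an arm are described as technical repeats, and p-values therefore measure the spread between arrays and not between cultures.

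YAP1 log2 intensity was 7.33, 6.77 and 6.56 on the knockdown arrays and 8.47, 8.26 and 8.47 on the control arrays, a 2.86-fold fall (adjusted p = 0.000355), and no kept probe was assigned to WWTR1, which encodes TAZ. Detection covered 41.6% to 44.3% of 47315 probes per array. Gene by gene, log2 intensities correlated at 0.983 or above within an arm and at 0.955 or below between arms. Among 18 listed markers of kidney epithelium and renal carcinoma 10 had a kept probe, PAX8, VIM, KRT8, KRT18 and KRT19 included, while CA9, PAX2, CDH1, LRP2, CUBN, AQP1 and GGT1 were among those with none; KRT19, MME, ANPEP, KRT8 and VIM were lower in knockdown cells and CDH2 higher. Of the markers of other cell types, 0 of 6 endothelial, 1 of 8 leukocyte (CD14) and 4 of 8 fibroblast genes (COL1A1, LUM, PDGFRB and THY1) had a kept probe. CD14 was higher in knockdown cells. Of the fibroblast genes PDGFRB (log2 difference -1.19), THY1 (-0.83) and COL1A1 were lower and LUM higher; COL1A1 was detected on no knockdown array and LUM on no control array. Mean log2 intensity of the 4 fibroblast genes was 6.64, 6.47 and 6.64 on the knockdown arrays and 7.08, 7.11 and 7.11 on the control arrays. The part of these genes in the results was not tested.

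De novo, the purine ring is assembled on a ribose phosphate with the help of folate-bound carbon, while the pyrimidine ring is made first and joined to ribose phosphate afterwards. Both kinds are also rebuilt from free bases and nucleosides by salvage enzymes. Ribonucleotide reductase turns ribonucleoside diphosphates into the deoxy form, thymidylate synthase adds the methyl group that makes thymidylate, and several of these enzymes are made mainly in S phase of dividing cells. Breakdown enzymes remove phosphate, amino groups or sugar, and a separate set of hydrolases clears damaged or misplaced nucleotides from the pool.

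In knockdown cells the called members lay mostly on the lower side. At an adjusted p under 0.05 in limma, 22 of the 52 genes were lower (42.3%), 4 were higher (7.69%) and 26 were not called. Over all 11646 genes tested, 39.8% were called, 19.5% lower and 20.3% higher. The median log2 difference, knockdown minus control, was -0.25 over the 52 measured members and 0.03 over all genes. Falls of at least 1 on the log2 scale were found for 8 members, CDA, TK1, HPRT1, UCK2, NUDT1, TYMS, CTPS1 and ADK, and rises of that size for 2, TK2 and DPYD, while 4.81% of all genes fell and 3.57% rose that far. At an unadjusted p under 0.05, 28 of the 52 members passed, NT5C2 and ITPA, both lower in knockdown cells, being the additional ones. Of all 11646 genes 5575 passed, a share not far below that of the members. Arrays of both arms were fully separated for 34 of the 52 members (65.4%), against 50.9% of all genes. In these bulk samples, fewer cells of a type and less RNA per cell cannot be told apart.

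**Figure D1:**
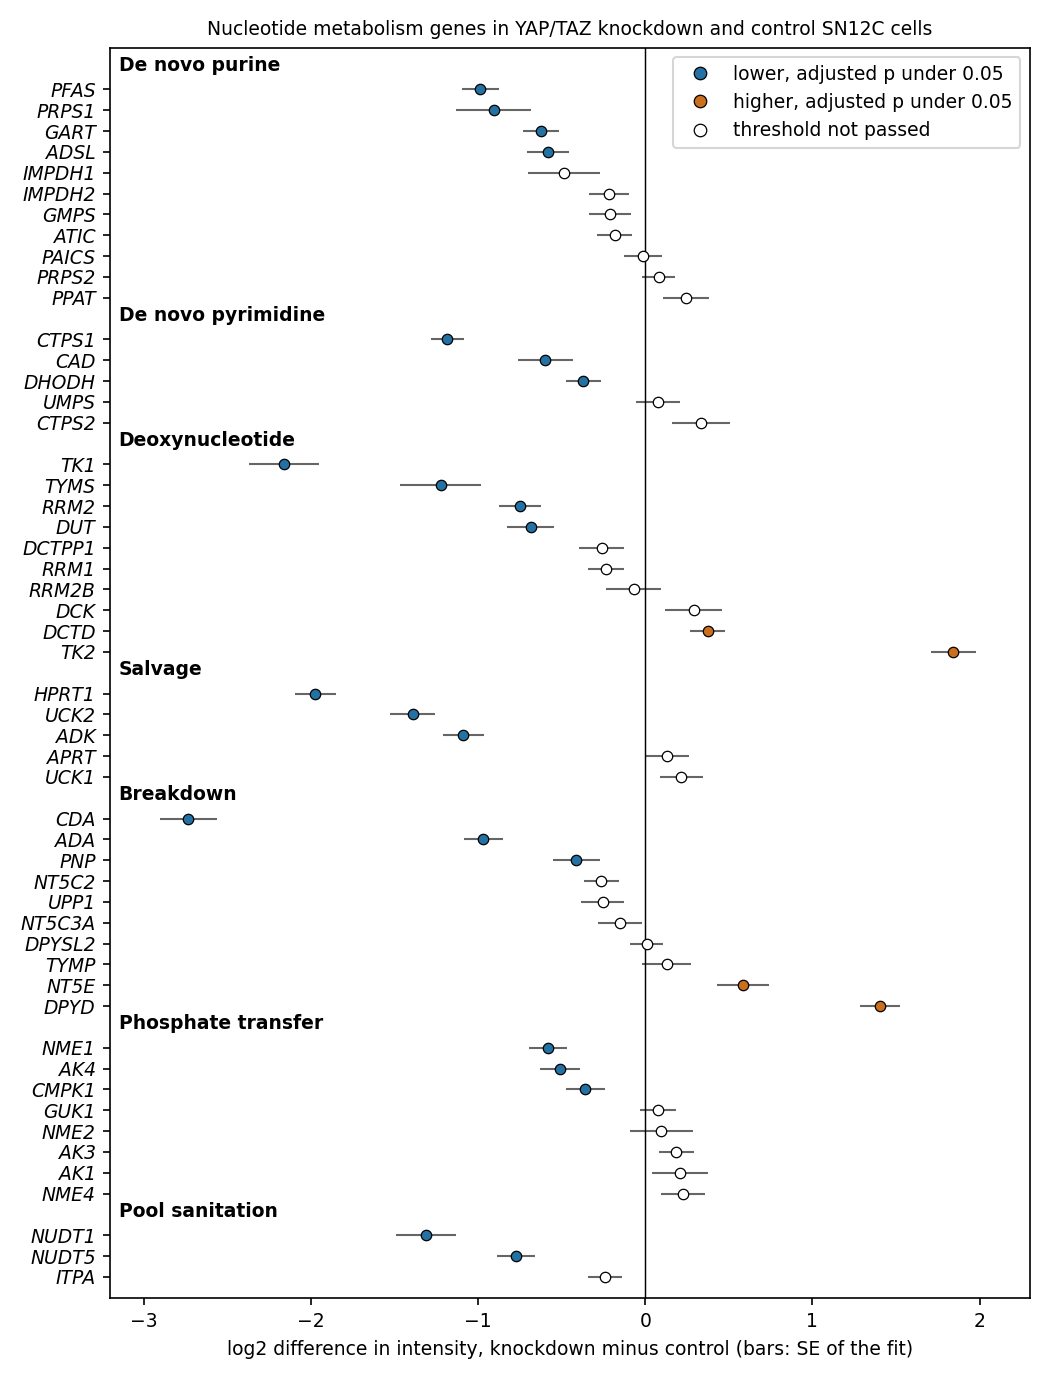
Log2 difference in intensity, knockdown minus control, of the 52 genes with a kept probe, ordered within each branch of the pathway; bars are the standard error of the fit over 3 arrays per arm. CDA, TK1 and HPRT1 lie farthest to the left and TK2 and DPYD farthest to the right, and 26 open circles did not pass the threshold.

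The scaling of the arrays changed which members were called more than the size of their differences. When arrays were scaled by the median over all probes in place of quantile normalization, 10 members fell and 2 rose, while the share of all genes called was 10.6%. The 14 calls lost there were those of PRPS1, GART, ADSL, CAD, DHODH, RRM2, DUT, DCTD, PNP, NT5E, AK4, CMPK1, NME1 and NUDT5, with adjusted p-values of 0.0599 to 0.593. Their log2 differences stayed close to those after quantile normalization, the largest move among the 14 being that of NME1, at -0.67 with median scaling and -0.58 with quantile normalization. Scaling by the median of the kept probes, which was added once these data had been examined, lost 4 calls, those of DHODH, DCTD, PNP and CMPK1.

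The 250 bases before the start of each gene, taken from RefSeq (GRCh38.p14, the first listed start of a gene), were searched on both strands for the letters GGAATG, known from TEAD factors, the DNA-binding partners of YAP and TAZ, for the E-box CACGTG, known from MYC, and for TTTGGCGC or TTTCGCGC, known from E2F factors. A window was at hand for 48 of the 52 measured members. GGAATG stood in 4 of 21 windows of members that fell (19.0%), in 0 of 4 of those that rose and in 1 of 23 of those not called (4.35%), against 9.51% of 9375 windows of genes tested and 11.9% of all 27305 windows. CACGTG stood in 3 of 21, 0 of 4 and 4 of 23, against 9.02% and 6.49%, and the E2F letters in 0 of the 48, against 1.74% and 0.996%. Among the lowered members with GGAATG, PNP lost its call under 7 and CMPK1 under 8 of 17 other settings, so the 19.0% rests in part on unstable calls. These are matches of letters in a short window and no measure of binding. The 4 windows of lowered members with GGAATG, here in capitals, are shown so that the letters can be seen in their surroundings: GART on the minus strand (chr21:33542893-33543142), and PNP (chr14:20469156-20469405), ADK (chr10:74150971-74151220) and CMPK1 (chr1:47333540-47333789) on the plus strand. TK1 (chr17:78187205-78187454) and TK2 (chr16:66550123-66550372), both on the minus strand, are shown as the pair called in opposite directions; neither held any of the letters searched.
GART: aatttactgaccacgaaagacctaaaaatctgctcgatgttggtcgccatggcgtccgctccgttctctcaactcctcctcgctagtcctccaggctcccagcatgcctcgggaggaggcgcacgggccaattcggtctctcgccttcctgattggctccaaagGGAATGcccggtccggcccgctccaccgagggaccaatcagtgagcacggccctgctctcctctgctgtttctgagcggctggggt
PNP: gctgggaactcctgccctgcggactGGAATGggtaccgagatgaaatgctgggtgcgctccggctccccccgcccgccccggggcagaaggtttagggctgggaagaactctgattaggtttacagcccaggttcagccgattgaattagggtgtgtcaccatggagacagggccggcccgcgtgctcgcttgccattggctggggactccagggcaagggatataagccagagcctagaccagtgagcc
ADK: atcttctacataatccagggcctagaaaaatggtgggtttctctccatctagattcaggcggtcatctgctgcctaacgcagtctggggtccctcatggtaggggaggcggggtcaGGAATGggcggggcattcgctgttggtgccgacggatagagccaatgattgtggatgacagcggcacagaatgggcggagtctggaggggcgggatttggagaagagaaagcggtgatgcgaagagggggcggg
CMPK1: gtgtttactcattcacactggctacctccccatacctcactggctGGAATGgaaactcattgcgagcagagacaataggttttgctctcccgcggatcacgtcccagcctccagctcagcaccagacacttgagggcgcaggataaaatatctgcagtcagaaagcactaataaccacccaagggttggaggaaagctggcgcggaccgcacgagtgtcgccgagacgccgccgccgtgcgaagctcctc
TK1: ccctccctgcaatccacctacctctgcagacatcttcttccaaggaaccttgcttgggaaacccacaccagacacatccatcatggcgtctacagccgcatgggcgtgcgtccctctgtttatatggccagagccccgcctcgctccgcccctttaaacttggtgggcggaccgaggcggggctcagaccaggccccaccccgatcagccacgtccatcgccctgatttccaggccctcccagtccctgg
TK2: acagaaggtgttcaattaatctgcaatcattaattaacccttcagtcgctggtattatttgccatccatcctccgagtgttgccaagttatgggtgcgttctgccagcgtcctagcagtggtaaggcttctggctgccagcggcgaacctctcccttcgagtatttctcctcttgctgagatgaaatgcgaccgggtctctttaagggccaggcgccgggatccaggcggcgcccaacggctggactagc

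De novo purine synthesis was lower at 4 of its 11 measured genes (36.4%) and higher at 0, against 19.5% and 20.3% of all genes. The share called in either direction was near the 39.8% of all genes, and the median log2 difference was -0.22. PFAS, which uses glutamine to aminate an early intermediate, had log2 intensities of 8.0, 7.98 and 7.86 on the knockdown arrays and 9.07, 8.81 and 8.92 on the control arrays. Its arms were well apart, and the fall was 1.98-fold (log2 difference -0.99 ± 0.11 (SE), adjusted p = 0.00021). PRPS1, which makes the ribose phosphate donor, read 9.56, 8.91 and 8.56 on the knockdown arrays and 9.98, 9.78 and 9.99 on the control arrays. Knockdown array 1 was the highest of its arm, yet all 3 lay below the control arrays, and PRPS1 fell 1.88-fold (adjusted p = 0.0121).

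GART, which carries several of the early steps, had 8.28, 8.12 and 8.20 on the knockdown arrays and 8.82, 8.91 and 8.73 on the control arrays, with arms that did not overlap and a 1.54-fold fall (adjusted p = 0.00192). Values of ADSL, the lyase that acts both on the way to IMP and on the way to AMP, were 9.83, 10.15 and 9.93 on the knockdown arrays and 10.44, 10.53 and 10.69 on the control arrays. Each knockdown array was again below each control array, and ADSL fell 1.5-fold (adjusted p = 0.00586).

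The other steps on the way to IMP were not called. PPAT, the committed amidotransferase, differed by 0.24 ± 0.14 on the log2 scale (adjusted p = 0.203), PAICS, which follows GART in the path, by -0.02 ± 0.11 (0.926) and ATIC, which closes the IMP ring, by -0.18 ± 0.10 (0.203). For PAICS the arms overlapped, with 10.33, 10.55 and 10.44 on the knockdown arrays and 10.33, 10.56 and 10.48 on the control arrays. PRPS2, the second synthetase of the ribose phosphate donor, differed by 0.08 ± 0.10 (0.554). On the branch to GMP, IMPDH1 differed by -0.49 ± 0.22 (0.11), IMPDH2 by -0.22 ± 0.12 (0.195) and GMPS by -0.21 ± 0.13 (0.224). IMPDH1 rested on an uneven arm, with 7.51, 8.28 and 8.38 on the knockdown arrays and 8.40, 8.51 and 8.71 on the control arrays, knockdown array 1 being the lowest. It passed with the replicate number as a block (adjusted p = 0.0214) and with the mean of its probes (0.0429), whereas without knockdown array 1 its log2 difference was -0.22 (0.232).

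De novo pyrimidine synthesis was lower at 3 of 5 genes (60%) and higher at 0, against 19.5% and 20.3% of all genes, with a median log2 difference of -0.37. The largest of the falls was at its last step. CTPS1, the CTP synthase, read 8.0, 8.14 and 8.10 on the knockdown arrays and 9.24, 9.30 and 9.24 on the control arrays, values that varied little within each arm, and fell 2.27-fold (log2 difference -1.18 ± 0.10 (SE), adjusted p = 3.83e-05). CAD, which holds the opening enzyme activities of the branch, had 6.05, 6.14 and 6.24 on the knockdown arrays and 7.12, 6.55 and 6.55 on the control arrays. Control array 1 was the highest of the 6, the arms did not overlap, and CAD fell 1.51-fold (adjusted p = 0.019). Without knockdown array 2 it missed the threshold (0.0505), and over the 17 other settings its log2 difference lay between -0.69 and -0.33.

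DHODH, the mitochondrial enzyme that oxidizes dihydroorotate, fell by 0.37 on the log2 scale, between 5.19 and 5.31 on the knockdown arrays and between 5.52 and 5.70 on the control arrays (adjusted p = 0.0225). Its call ended without background correction (0.0685) and without knockdown array 1 (0.0575) or 3 (0.0546) or control array 2 (0.0767) or 3 (0.085). UMPS, which makes UMP, lay near background, was detected on 3 knockdown and 2 control arrays, and differed by 0.08 ± 0.13 (0.673). CTPS2, the other CTP synthase, differed by 0.33 ± 0.17 (0.161) and passed with the replicate number as a block (0.0499).

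Of 10 deoxynucleotide genes 4 were lower (40%) and 2 higher (20%), against 19.5% and 20.3% of all genes, with a median log2 difference of -0.25. TK1, the cytosolic thymidine kinase of S phase, and TK2, the mitochondrial thymidine kinase, were called in opposite directions. TK1 had log2 intensities of 6.44, 7.29 and 7.08 on the knockdown arrays and 9.26, 8.92 and 9.11 on the control arrays. All knockdown arrays lay below the control arrays, array 1 lowest, and TK1 fell 4.47-fold (log2 difference -2.16 ± 0.21 (SE), adjusted p = 8.4e-05). TK2 had 7.16, 7.22 and 7.32 on the knockdown arrays and 5.14, 5.43 and 5.60 on the control arrays. Here the knockdown arrays were the higher ones by a wide gap, and TK2 rose 3.59-fold (log2 difference 1.84 ± 0.13 (SE), adjusted p = 1.87e-05). Without background correction the rise of TK2 was 1.94-fold.

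The steps that yield thymidylate were lower at TYMS and DUT. TYMS, thymidylate synthase, read 8.15, 9.23 and 8.81 on the knockdown arrays and 9.74, 10.10 and 10.03 on the control arrays. The knockdown arm was spread over more than 1 on the log2 scale with array 1 lowest, but did not reach the control arm, and TYMS fell 2.34-fold (adjusted p = 0.00415). DUT, which hydrolyses dUTP to the substrate of TYMS, had 6.92, 7.40 and 7.18 on the knockdown arrays and 7.75, 7.96 and 7.84 on the control arrays, without overlap, and fell 1.61-fold (adjusted p = 0.00467). DCTD, the deaminase that makes the same substrate from dCMP, rose by 0.37 on the log2 scale, lying between 9.74 and 9.84 on the knockdown arrays and between 9.33 and 9.54 on the control arrays (adjusted p = 0.021). The call of DCTD ended without knockdown array 3 (0.0672), control array 1 (0.0638) or control array 3 (0.0777), and without both arrays numbered 1 (0.062), a setting added later.

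Of ribonucleotide reductase, the small subunit of dividing cells was called and the other subunits were not. RRM2 had 5.05, 5.22 and 5.09 on the knockdown arrays and 5.68, 6.04 and 5.88 on the control arrays, arms apart, and fell 1.68-fold (adjusted p = 0.00154). The size of this fall was less firm, as the log2 difference lay between -0.86 and -0.29 over the 17 other settings. RRM1, the large subunit, differed by -0.24 ± 0.11 (adjusted p = 0.12), with arms that did not overlap, and passed without background correction (0.0428). RRM2B, the small subunit induced by p53, had 5.99, 5.72 and 5.99 on the knockdown arrays and 5.61, 6.18 and 6.10 on the control arrays, arms that overlapped, and differed by -0.07 ± 0.17 (0.772). DCK, the deoxycytidine kinase, differed by 0.29 ± 0.17 (0.218; 0.0431 with the replicate number as a block), and DCTPP1, a dCTP pyrophosphatase, by -0.26 ± 0.13 (0.152).

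Genes of cell division moved beside these. All 20 listed genes of mitosis were called lower, with a median log2 difference of -1.61, and their mean log2 intensity was 6.40, 7.15 and 6.87 on the knockdown arrays and 8.39, 8.49 and 8.58 on the control arrays. Of 18 measured genes of S phase 6 were lower (33.3%) and 0 higher, against 19.5% and 20.3% of all genes. Their median was -0.28 (at an unadjusted p under 0.05 SLBP was higher). Mean log2 intensities were 7.60, 8.08 and 7.81 on the knockdown arrays and 8.06, 8.18 and 8.16 on the control arrays. Knockdown array 1 had the lowest mean of both lists and the lowest TK1 and TYMS. It was not low for these genes alone. The mean of all 52 measured members was 8.17 on it, against 8.35 and 8.32 on the other knockdown arrays. The salvage mean was 7.58 against 7.82 and 7.79, while that of de novo pyrimidine genes was highest on it (6.51 against 6.47 and 6.50). The part of cell division in the differences of TK1, TYMS, RRM2 and DUT was not tested.

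**Figure D2:**
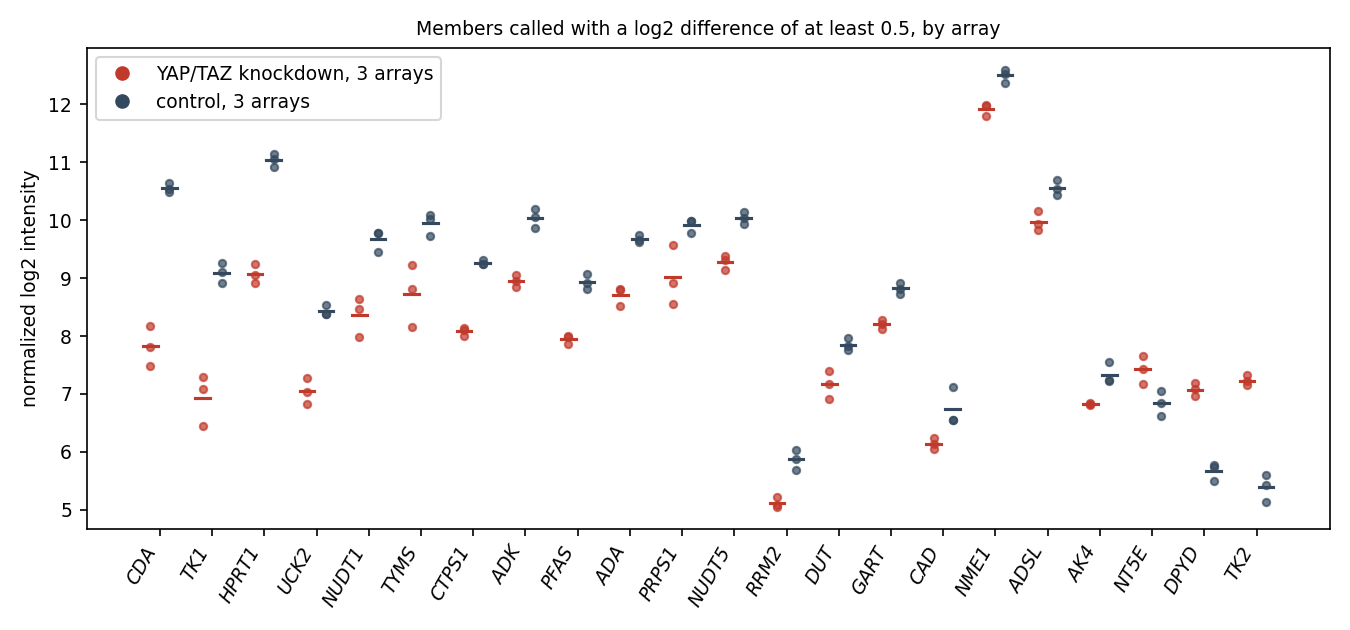
Normalized log2 intensity on each array, knockdown left of control, for the 22 members called with a log2 difference of at least 0.5; horizontal lines are arm means. In each of the 22 the arms do not overlap, which choosing members by adjusted p and size favours. NT5E, DPYD and TK2, on the right, are the higher ones in knockdown cells.

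Salvage held large falls beside genes that were not called. HPRT1, UCK2 and ADK each fell by more than 1 on the log2 scale, and APRT and UCK1 were not called. Thus 3 of 5 genes were lower (60%) and 0 higher, against 19.5% and 20.3% of all genes. Falls of at least 1 were found for 4.81% of all genes. The median log2 difference of the 5 salvage genes was -1.09. HPRT1, which returns hypoxanthine and guanine to the nucleotide pool, read 8.91, 9.24 and 9.06 on the knockdown arrays and 10.92, 11.06 and 11.15 on the control arrays. A gap of more than 1 separated the arms, and HPRT1 fell 3.93-fold (log2 difference -1.97 ± 0.12 (SE), adjusted p = 7.79e-06). UCK2, a uridine and cytidine kinase, had 6.83, 7.28 and 7.03 on the knockdown arrays and 8.39, 8.38 and 8.54 on the control arrays, again without overlap, and fell 2.62-fold (adjusted p = 8.47e-05).

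ADK, adenosine kinase, had 8.85, 9.05 and 8.95 on the knockdown arrays and 9.86, 10.05 and 10.20 on the control arrays, each knockdown value lying below each control value. Its fall was 2.12-fold (adjusted p = 0.0002). APRT, which salvages adenine, differed by 0.13 ± 0.13 on the log2 scale (adjusted p = 0.474). UCK1, the other uridine and cytidine kinase, differed by 0.22 ± 0.13 (0.209) and was detected on 3 knockdown arrays and 1 control array. The 3 salvage falls were called under each of the 17 other settings tried.

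Breakdown genes included the largest fall of all members and a large rise. Of 10 genes 3 were lower (30%) and 2 higher (20%), against 19.5% and 20.3% of all genes. The share that was higher was near that of all genes, and the median log2 difference was -0.20. CDA, which deaminates cytidine and deoxycytidine, read 7.48, 7.81 and 8.18 on the knockdown arrays and 10.48, 10.64 and 10.54 on the control arrays. The knockdown arrays were the lower ones by a wide gap, and CDA fell 6.65-fold (log2 difference -2.73 ± 0.17 (SE), adjusted p = 7.48e-06). ADA, adenosine deaminase, had 8.52, 8.80 and 8.82 on the knockdown arrays and 9.63, 9.66 and 9.75 on the control arrays, without overlap, and fell 1.96-fold (adjusted p = 0.000288). PNP, the phosphorylase that splits inosine and guanosine, lay between 6.21 and 6.50 on the knockdown arrays and between 6.51 and 6.90 on the control arrays, arms that nearly touch (log2 difference -0.41 ± 0.14, adjusted p = 0.0436). The call of PNP ended without background correction (0.051), without knockdown array 1 (0.104) or 3 (0.103), and without control array 2 (0.13) or 3 (0.151).

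DPYD, the dehydrogenase that opens the breakdown of uracil and thymine, had 6.96, 7.08 and 7.18 on the knockdown arrays and 5.50, 5.74 and 5.77 on the control arrays. The knockdown arrays were all above the control arrays, and DPYD rose 2.64-fold (log2 difference 1.40 ± 0.12 (SE), adjusted p = 4.01e-05), or 1.67-fold without background correction. NT5E, the cell-surface enzyme that makes adenosine from AMP, read 7.66, 7.44 and 7.18 on the knockdown arrays and 6.62, 7.04 and 6.85 on the control arrays. The arms came close but did not overlap, and NT5E rose 1.5-fold (adjusted p = 0.0168), a call that ended without control array 1 (0.0526). The intracellular nucleotidases NT5C2 (-0.26 ± 0.10, adjusted p = 0.0754) and NT5C3A (-0.15 ± 0.13, 0.41), the uridine phosphorylase UPP1 (-0.25 ± 0.13, 0.153) and the thymidine phosphorylase TYMP (0.13 ± 0.15, 0.526) were not called. NT5C2 passed without background correction (0.022) and with an intensity trend and robust prior (0.0493). DPYSL2, a relative of dihydropyrimidinase known for its part in the cytoskeleton of neurons, differed by 0.01 ± 0.10 (0.954).

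Among 8 kinases that pass phosphate between nucleotides 3 fell (37.5%) and 0 rose, against 19.5% and 20.3% of all genes. The share called in either direction was near the 39.8% of all genes, and the median log2 difference was 0.09. NME1, a nucleoside diphosphate kinase, read 11.80, 11.97 and 11.99 on the knockdown arrays and 12.37, 12.60 and 12.53 on the control arrays, without overlap, and fell 1.5-fold (adjusted p = 0.00362). AK4, a mitochondrial adenylate kinase, had 6.82, 6.85 and 6.80 on the knockdown arrays and 7.23, 7.55 and 7.22 on the control arrays, the knockdown values lying close together below the control values, and fell 1.42-fold (adjusted p = 0.00925). CMPK1, the UMP and CMP kinase, lay between 7.32 and 7.51 on the knockdown arrays and between 7.59 and 7.87 on the control arrays (log2 difference -0.36 ± 0.12, adjusted p = 0.0394). That call ended with the mean of the probes (0.0674), without knockdown array 1 (0.0888), 2 (0.101) or 3 (0.0556), and without control array 2 (0.109) or 3 (0.146).

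The remaining kinases were not called. AK1, a cytosolic adenylate kinase, differed by 0.21 ± 0.17 on the log2 scale (adjusted p = 0.367), AK3, of the mitochondrial matrix, by 0.19 ± 0.10 (0.19), and GUK1, the guanylate kinase, by 0.08 ± 0.11 (0.604). NME2 had 7.22, 7.70 and 7.79 on the knockdown arrays and 7.65, 7.15 and 7.63 on the control arrays and differed by 0.10 ± 0.19 (0.716). NME4, the mitochondrial diphosphate kinase, differed by 0.23 ± 0.13 (0.22) and passed as a rise without knockdown array 1 (0.0393). NME1 and NME2 are close copies of each other, and whether their probes share signal was not tested.

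Of the 3 genes that clear the nucleotide pool 2 fell (66.7%) and 0 rose, against 19.5% and 20.3% of all genes, with a median log2 difference of -0.77. NUDT1, which hydrolyses oxidized purine nucleoside triphosphates, had 7.98, 8.63 and 8.46 on the knockdown arrays and 9.79, 9.45 and 9.79 on the control arrays, arms far apart, and fell 2.49-fold (adjusted p = 0.000585). NUDT5, a hydrolase of ADP-ribose and of oxidized nucleoside diphosphates, read 9.13, 9.38 and 9.31 on the knockdown arrays and 9.94, 10.05 and 10.15 on the control arrays, also without overlap, and fell 1.71-fold (adjusted p = 0.000897). ITPA, which removes inosine triphosphate, had 8.44, 8.52 and 8.41 on the knockdown arrays and 8.69, 8.64 and 8.77 on the control arrays and differed by -0.24 ± 0.10 (0.0885), with arms that did not overlap, and passed without background correction (0.0246) and with the mean of its probes (0.00984).

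Several steps are served by 2 related enzymes, and the pairs were compared through the difference between their log2 differences, a choice made after their values were seen. For TK1 against TK2 this was -4.01 ± 0.31 (SE over 3 arrays per arm), for CTPS1 against CTPS2 -1.52 ± 0.25 and for PRPS1 against PRPS2 -0.99 ± 0.32. It was -0.68 ± 0.16 for RRM2 against RRM2B, -0.68 ± 0.25 for NME1 against NME2 and -0.27 ± 0.20 for IMPDH1 against IMPDH2. For UCK2 against UCK1 it was -1.61 ± 0.17, a value that is not exact because UCK1 was detected on 1 control array. In each of the 7 pairs the ratio of both genes was lower on every knockdown array than on every control array, though for IMPDH1 and IMPDH2 the arms nearly touched. The direction follows from the order, since the gene with the lower log2 difference was put first. Arms were also fully separated for 50.9% of all genes taken singly, and the share over other pairs of genes was not computed. The 2-sided exact permutation p was 0.1 for each pair and 0.1 after Benjamini-Hochberg adjustment over the 7, the smallest value that 3 against 3 arrays allow, so no pair could pass the threshold by this test.

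**Figure D3:**
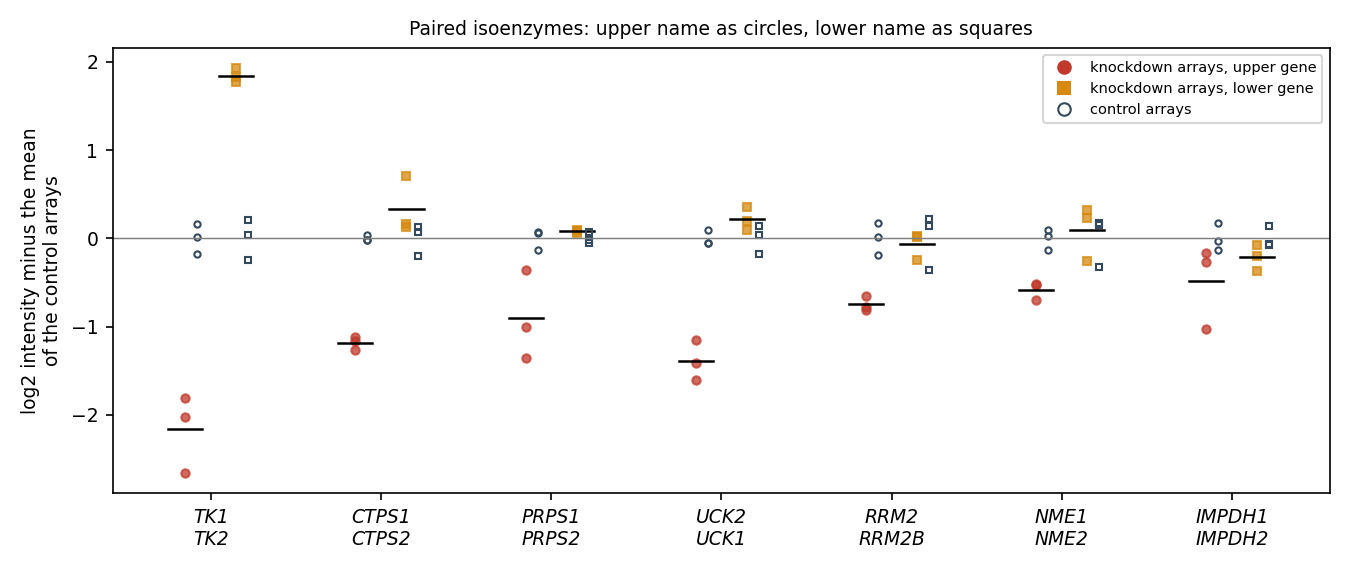
Log2 intensity minus the mean of the control arrays for 7 pairs of related enzymes, with knockdown arrays filled and control arrays open to their right; black lines are knockdown means. TK1 and TK2 lie on opposite sides of zero, and IMPDH1 and IMPDH2 lie closest together.

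For 20 of the 52 genes several probes were kept, and each was tested on its own over all 20348 probes, of which 32.3% were called, 16.5% lower and 15.8% higher. Of the 80 member probes 31 were lower, 5 higher and 44 not called. The probes of a gene shared their sign in 16 of the 20 genes and their call in 17, and in 0 genes were probes called in opposite directions. Both probes of HPRT1 gave the same fall (-1.97 ± 0.13 and -1.97 ± 0.11), as did, less evenly, the 3 of ADK (-1.09, -0.75 and -1.22) and the 4 of AK4 (-0.51, -0.58, -0.47 and -0.86).

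DUT differed between its probes. The brightest gave -0.69 ± 0.14 and another -0.75 ± 0.20, both called lower, while the remaining probe gave 0.23 ± 0.11 (adjusted p = 0.162). For ITPA the dimmer probe was called lower (-0.56 ± 0.10, adjusted p = 0.00368) and the brightest was not (0.114). For NME1 the probes gave -0.58, -0.42 and -0.60, the middle value not called (0.116). CMPK1, with its brightest probe, and PNP, with its single kept probe, missed the threshold over all probes (0.0529 for CMPK1 and 0.0572 for PNP). PAICS, RRM2B and NME2 had probes of both signs, none of them called.

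**Figure D4:**
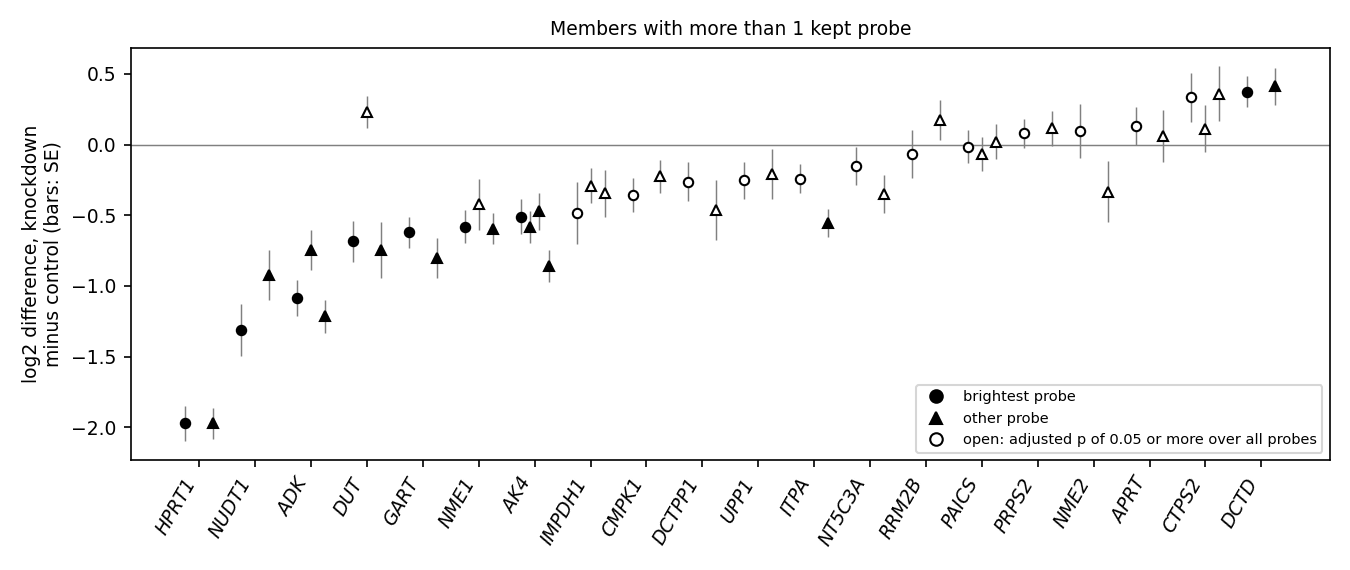
Log2 difference, knockdown minus control, of each kept probe of the 20 genes with more than 1; bars are standard errors, circles the brightest probe, triangles the others, and open symbols an adjusted p of 0.05 or more over all probes. The probes of HPRT1 coincide, and 1 probe of DUT lies above zero while the other 2 lie below.

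Of 48 further enzymes of nucleotide metabolism listed outside the 58, 19 had no kept probe. Of the 29 measured, 7 were lower (24.1%) and 8 higher (27.6%), against 19.5% and 20.3% of all genes. In either direction 51.7% were called, against 39.8% of all genes. Their median log2 difference of 0.03 equalled that of all genes to 2 decimals. AK5, an adenylate kinase best known from brain, rose 3.72-fold (log2 difference 1.89 ± 0.14 (SE), adjusted p = 2.11e-05), UPB1, which closes the breakdown of pyrimidines that DPYD opens, 2.85-fold (0.000214), and NME3, a nucleoside diphosphate kinase, 2.36-fold (3.6e-05). UPB1 was detected on 3 knockdown arrays and 1 control array, so its fold rests on control values that were mostly not above background and is not an exact size. ADA2, a secreted adenosine deaminase, was detected on no knockdown array, and its fall was at least 2.45-fold (adjusted p = 2.12e-05). That bound compares the control mean with, for each knockdown array, the lowest signal among detected probes or the probe's own value, whichever was higher. Of 4 measured nucleoside and nucleotide carriers SLC29A4 was lower (-0.37 ± 0.11, adjusted p = 0.0306) and 3 were not called.

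Of 14 measured factors known to act on these genes 2 were lower (14.3%), 2 higher (14.3%) and 10 not called. Of all genes 19.5% were lower and 20.3% higher, so these factors were called no more often than genes at large. MYC, which drives many nucleotide synthesis genes in other settings, differed by 0.12 ± 0.10 on the log2 scale (adjusted p = 0.393), and E2F1, which acts at the start of S phase, by 0.12 ± 0.21 (0.698). MXD4 (2.38-fold, adjusted p = 3.15e-05) and MXI1 (1.79-fold, 0.00125), both antagonists of MYC, were higher. MXD1 (log2 difference -7.2e-05, adjusted p = 0.9997) and MNT (0.07 ± 0.12, 0.686), antagonists of the same kind, were not called. E2F7, a repressor of the E2F family, fell 3.08-fold (1.77e-05), and ATF4, a factor of amino acid stress, fell by 0.30 on the log2 scale (0.048).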

How the data were processed

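Total RNA was labelled as cRNA and hybridised to Illumina bead arrays, per the labels' protocols. The deposited table of probe intensity is not normalized, per the file headers, and pairs each value with a detection p-value, per the file headers. Of its 48202 lines 887 carried no identifier and were left out. The authors also deposited a log2 table, and limma is named, without a version, in the submitters' processing notes. Its values differed from the log2 values computed here by at most 0.0238, so its scale is log2 and uncentred.

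Intensities were corrected by normexp with detection p-values (offset 16), quantile-normalized and brought to log2 (limma 3.58.1, R 4.3.3). Symbols came from the platform annotation, which named 15493 of the kept probes with 1 symbol. A gene was represented by its brightest probe on average. Arms were compared with lmFit and eBayes, with Benjamini-Hochberg adjustment over 11646 genes, and the fit was tested on simulated data. Array numbers are shared by both arms. Same-numbered arrays deviated together (correlations of deviations over genes of 0.627, 0.27 and 0.467), so a fit with the number as a block was run. Knockdown array 2 correlated more with control array 3 (0.378) than with control array 2, and knockdown array 3 with control array 2 at 0.222, so the numbers 2 and 3 are not clearly separate pairs. Arrays numbered 1 correlated negatively with 2 and 3 of the other arm, which centring each arm on its mean favours. Members, gene lists, tests and alternatives were chosen with earlier results of these data known. All members with a kept probe are named; values by array are given for called members with a log2 difference of at least 0.5, for members whose probes disagree in sign or call, and for IMPDH1, chosen after its values were seen. Outside the members, up to 4 called genes of a list with the largest differences are named, with YAP1, MYC and E2F1, and with MXD1 and MNT beside the called MYC antagonists. The number of arrays limits the precision.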

Additional observations from a re-analysis of the deposited data

How the results depend on the processing

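No member changed sign past the threshold under the 17 other settings, and 10 of the 22 falls (18 apart from scaling by the median of all probes) and 2 of the 4 rises were called under all of them. Scaling by the median of all probes, most of which were not detected, left 10 members lower and 2 higher, 15 of 80 member probes, and 1236 genes in all (549 higher and 687 lower); scaling by the median of the kept probes, added after the data were seen, called 22 members and 31.8% of all genes. Leaving out each array in turn gave 19 to 22 members lower, 2 to 5 higher (2 without control array 1, where DCTD and NT5E were lost), 30 to 36 member probes and 3363 to 4220 genes in all. With the replicate number as a block 23 members were lower and 6 higher; IMPDH1, CTPS2 and DCK passed in addition and no call was lost. Without both arrays numbered 1, also added later, DCTD and NT5E were lost and NT5C2 and NME4 passed. Normexp on the intensities alone, the authors' log2 table and detection on all 6 arrays lost 0 member calls. The setting without a detection filter could not change the gene counts, because symbols were at hand for kept probes alone. UMPS and UCK1, near background, were the members not detected on all 6 arrays.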
